A study of Mus musculus with 4 samples.

Results

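The genes of the cytosolic ribosomal proteins, which together with ribosomal RNA build the large and the small subunit of the ribosome, were examined in mouse thymocytes. The thymocytes came from mice with Srsf1 targeted in the T lineage (KO) and from WT mice. Srsf1 RNA was lowered in the KO cells but not absent. Protein-coding genes were taken when their symbol had the form Rpl or Rps with a number, or was Rplp0, Rplp1, Rplp2 or Rpsa, and the Rps6k kinases were left out. This gave 83 of the 53715 genes in the files, 51 of the large subunit and 32 of the small subunit. Of these, 46 large and 31 small subunit genes are the standard genes, and 6 are further copies (Rpl3l, Rpl7l1, Rpl10l, Rpl22l1, Rpl39l and Rps27l). Fau and Rack1 also make ribosomal proteins but have symbols of another form.

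RNA was sequenced from sorted CD4+CD8+ double-positive cells of the thymus of C57BL/6 mice aged 6 to 8 weeks, the stage at which T cell precursors carry both coreceptors and are tested for their antigen receptor. The 2 KO libraries came from mice of genotype LCKCre/+ Srsf1fl/fl, in which Cre is driven by the Lck promoter of the T lineage and both alleles of Srsf1 are flanked by loxP sites. The 2 WT libraries came from mice labelled WT, and the labels do not say whether these carried Cre or floxed alleles. SRSF1 is an SR protein that acts in splicing and in mRNA export and translation, and the question was how its loss alters gene expression in these cells. No label says that replicates came from separate animals, so every p-value measures the spread between these libraries, which may be technical.

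Ribosomal proteins are needed in equal numbers, since each ribosome holds a single copy of each standard protein except for the acidic stalk proteins. Their mRNAs are among the most abundant in a growing cell and start with a run of pyrimidines, the terminal oligopyrimidine tract, through which mTOR and LARP1 control their translation. Assembly begins in the nucleolus. Free RPL5 and RPL11, held together by the ribosomal 5S RNA, can bind MDM2 and stabilise p53 when assembly fails, and loss of a single ribosomal protein copy causes Diamond-Blackfan anaemia in humans.

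The libraries held 37033180 and 36389555 counts in KO and 35862730 and 36515358 counts in WT. Srsf1 had 49.7 and 48.7 CPM (counts scaled to a common library total) in the KO libraries and 134.4 and 122.8 CPM in the WT libraries, and it fell by 1.39 on the log2 scale (SE 0.09, adjusted p = 2.91e-06). Tests are edgeR's quasi-likelihood tests with Benjamini-Hochberg adjustment over all 16588 genes tested, a log2 fold change is KO over WT, and a gene is called at an adjusted p under 0.05. Of 15 markers of double-positive thymocytes, 8 rose and none fell, and Cd4 had 1379 and 1388 CPM in KO and 1257 and 1210 CPM in WT. Of 8 markers of mature single-positive thymocytes, 1 rose and 4 fell. Summed B cell markers were between 21.3 and 24.4 CPM in KO and between 12.4 and 13.2 CPM in WT. Of the 6 tested B cell markers, 1 was called higher. None was called among the 7 myeloid and dendritic, 4 erythroid and 5 epithelial and stromal markers that were tested.

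Most ribosomal protein genes were slightly higher in KO than in WT cells, and 12 of them rose. All 83 passed the filter on low counts, and 5 large subunit and 7 small subunit genes passed the test upwards, none downwards. That is 14.5% of the members, where 6.63% of all tested genes were called higher, 7.89% were called lower and 14.5% were called in either direction. An unadjusted p under 0.05 was reached by 32 members, all with positive fold changes, and by 4542 of the 16588 tested genes in either direction. DESeq2 called 17 members higher and none lower, and its count over all genes is not given here. The log2 fold change was above 0 in 77 of the 83 members, against 50.2% of all tested genes. Its median was 0.13, with quartiles at 0.06 and 0.20, against a median of 0.0022 over all tested genes. Both KO libraries lay above both WT libraries in 51 members, or 61.45%, against 27.8% of tested genes. They lay below both WT libraries in 2 members, Rpl22l1 and Rpl10l, against 28.1% of tested genes. Rpl10l had 8 and 0 counts in KO and 10 and 12 counts in WT. It passed the filter on low counts only through its WT libraries, so its place below them is not read as a result.

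The ribosomal protein genes are highly expressed, and highly expressed genes are called more often. Among the 2630 tested genes whose mean reached 100 CPM, a limit set after the values were seen, 18.6% were called higher and 17.3% lower. Both KO libraries lay above both WT libraries in 40.5% of them, and their median log2 fold change was 0.03. The share of members called higher, 14.5%, is not above this background. No member was called lower, and the members' quartiles of 0.06 and 0.20 compare with -0.18 and 0.20 for the 2630 genes. In cells sorted in bulk, fewer cells of a type and less RNA per cell cannot be told apart, and a gene's CPM is its share of the library. The summed level of the double-positive markers was 20390 and 20080 CPM in KO and 15390 and 14730 CPM in WT, and its part in these results was not tested.

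**Figure D1:**
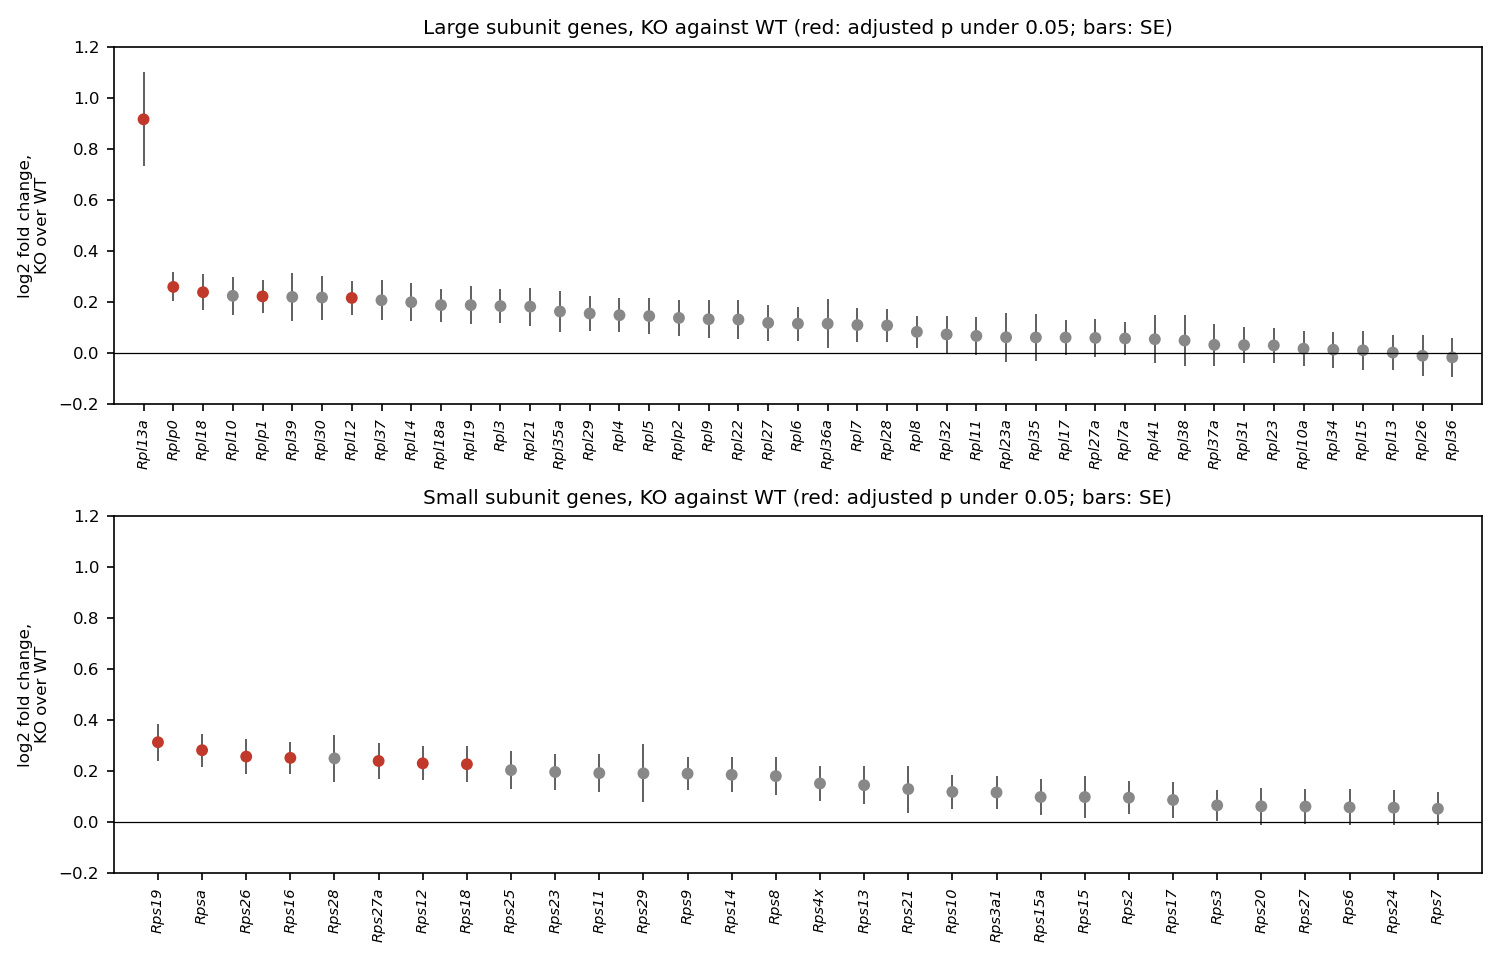
Log2 fold change, KO over WT, of the standard ribosomal protein genes (vertical axis), ordered by size within the large (above) and small (below) subunit. Points are edgeR estimates with SE bars, and red marks the 5 large and 7 small subunit genes called higher. Rpl24, whose SE was 0.60, is not drawn. Every small subunit gene drawn lies above 0, and Rpl13a stands apart at 0.92.

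In the small subunit all 32 genes had a positive log2 fold change, the lowest being 0.05 for Rps7, with a median of 0.17. The 7 genes that rose were Rps19, Rpsa, Rps26, Rps16, Rps27a, Rps12 and Rps18. Rps19, which is needed to mature the small subunit's RNA and is the gene most often mutated in Diamond-Blackfan anaemia, had 374 and 357 CPM in KO and 304 and 285 CPM in WT (log2 fold change 0.31, SE 0.07, adjusted p = 0.0128). Rpsa, also known as a receptor for laminin, had 968 and 895 CPM in KO and 752 and 782 CPM in WT (0.28, SE 0.06, adjusted p = 0.0118). The replicates of each group lay closer to each other than to the other group in both genes. Rps16, a protein of the small subunit's head, had 687 and 691 CPM in KO and 573 and 586 CPM in WT (0.25, SE 0.06, adjusted p = 0.0197).

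Rps26, which lines the exit channel for mRNA, had 414 and 389 CPM in KO and 334 and 338 CPM in WT (0.26, SE 0.07, adjusted p = 0.027). Rps27a, whose protein is made as a fusion with ubiquitin, had 409.6 and 396 CPM in KO and 348 and 335 CPM in WT (0.24, SE 0.07, adjusted p = 0.0371). Rps18, a protein of the head that faces the large subunit, had 391 and 398 CPM in KO and 344 and 331 CPM in WT (0.23, SE 0.07, adjusted p = 0.0485). The libraries of the groups did not overlap in any of these 3 genes. Rps12 belongs to the beak, a protrusion of the head, with Rps10 and Rps27a. It had 463 and 459.8 CPM in KO and 394 and 393 CPM in WT (0.23, SE 0.07, adjusted p = 0.0372), and Rps10 was not called (0.12, SE 0.07, adjusted p = 0.286). With the replicate numbers as a block none of the 3 beak genes was called.

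Among the other 25 small subunit genes, Rps9 had 1030.3 and 1064 CPM in KO and 940.1 and 898 CPM in WT (0.19, SE 0.06, adjusted p = 0.0655). Rps9 was chosen for naming after its values were seen, as a gene that DESeq2 called. The genes of the small subunit that differed least were Rps7 (0.05), Rps24 (0.06) and Rps6 (0.06), also named after their values were seen. Rps6, the substrate of the S6 kinases, had 483 and 484 CPM in KO and 484 and 446 CPM in WT, so that its libraries overlapped.

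In the large subunit 45 of 51 genes had a positive log2 fold change, with a median of 0.11, and Rpl13a, Rplp0, Rplp1, Rpl18 and Rpl12 rose. Rplp0, Rplp1, Rplp2 and Rpl12 form the P stalk and its base, which recruits the elongation factors, and 3 of these 4 genes were among the 5. Rplp0, the protein that anchors the stalk, had 1794 and 1729 CPM in KO and 1482 and 1467 CPM in WT (0.26, SE 0.06, adjusted p = 0.00968). Its WT libraries differed by far less than the distance between the groups. Rplp1 had 884 and 924 CPM in KO and 786 and 766 CPM in WT (0.22, SE 0.06, adjusted p = 0.037). Rpl12, at the base of the stalk, had 551 and 570.4 CPM in KO and 487 and 480.1 CPM in WT (0.22, SE 0.07, adjusted p = 0.0496). The dimer partner of Rplp1, Rplp2, had 406 and 426 CPM in KO and 388 and 369 CPM in WT and did not pass the test (0.14, SE 0.07, adjusted p = 0.25). Without WT replicate 2 none of the 4 genes was called, and 1 was called without KO replicate 2 or without WT replicate 1.

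Rpl18, a protein of the large subunit's solvent side, had 750.0 and 778 CPM in KO and 677 and 621 CPM in WT (0.24, SE 0.07, adjusted p = 0.039). Rpl13a had the largest change of the 12 called members. It had 27.6 and 34.0 CPM in KO and 17.8 and 14.9 CPM in WT, from 1023 and 1238 counts in KO and 639 and 544 counts in WT, and its log2 fold change was 0.92 (SE 0.18, adjusted p = 0.00568), an increase of 88.4%. RPL13A is a structural protein that in human myeloid cells also leaves the ribosome and silences inflammatory mRNAs. Apart from Rpl13a, the called members were higher by between 15.9% (Rpl12) and 24.1% (Rps19). The level of Rpl13a is itself unusual, as described with the shared sequences.

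**Figure D2:**
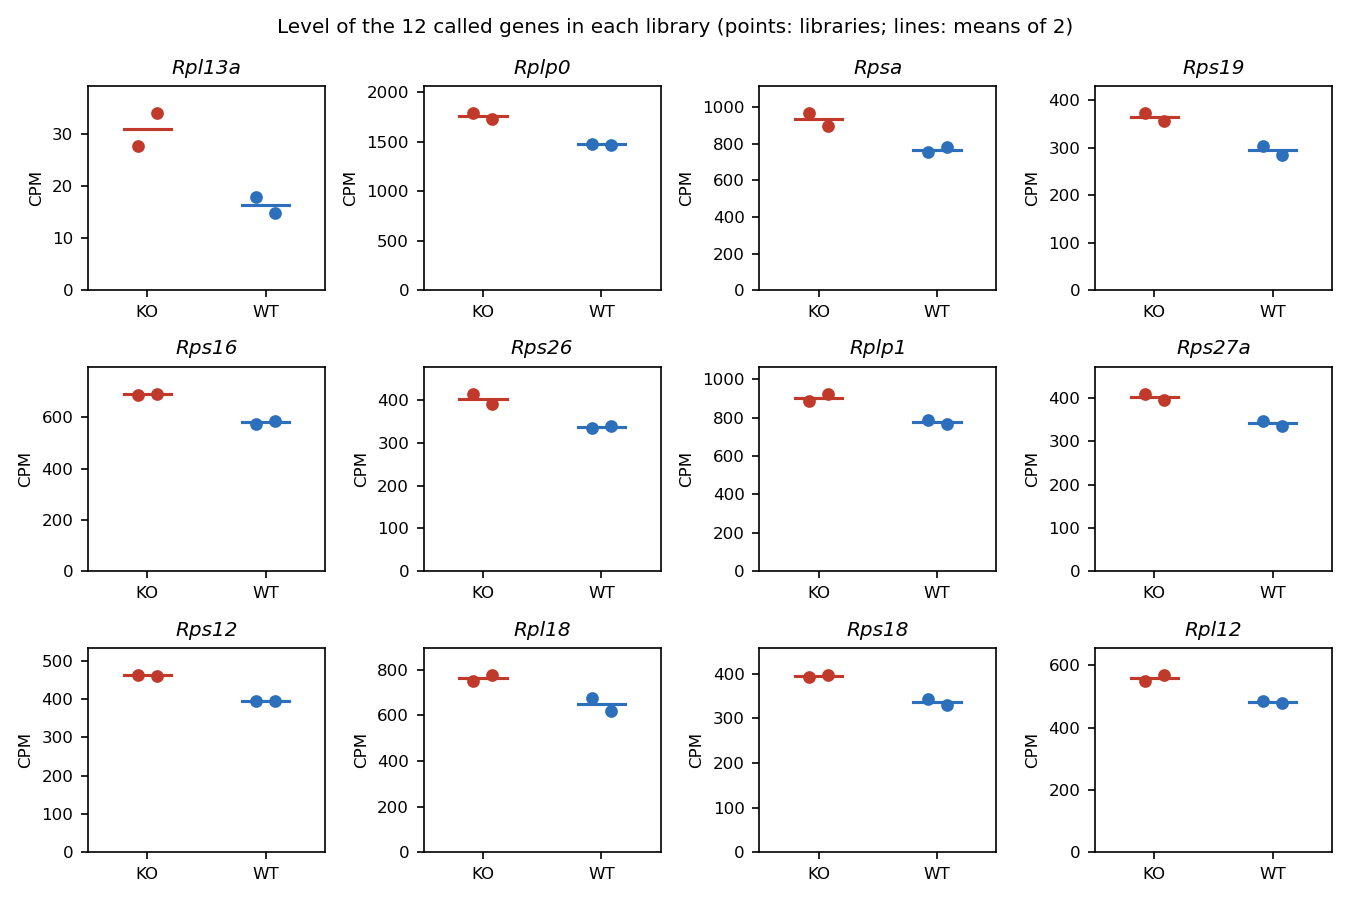
Level in CPM (vertical axis, from 0) of the 12 genes that rose, in the 2 KO libraries (left, red) and the 2 WT libraries (right, blue) of each panel. Points are libraries and lines are means. The groups do not overlap in any panel, and the relative distance is largest for Rpl13a, at 27.6 and 34.0 CPM in KO and 17.8 and 14.9 CPM in WT.

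Which members were called depended on single libraries. Apart from limma, the share of all genes called in the same fit is not given here. The counts of members below therefore do not set them against other genes. Only Rpl13a kept its call when each of the 4 libraries was left out in turn, with adjusted p-values up to 0.0187. Without WT replicate 2, 3 members were called, among them Rpl13a and Rpsa of the 12, and the other 10 had adjusted p-values from 0.0821 to 0.325. Without WT replicate 1, 5 were called, among them Rpl13a, Rplp0, Rps19 and Rpl18, and the other 8 of the 12 had adjusted p-values from 0.0672 to 0.159. Without KO replicate 2, 19 were called, and Rpl12, Rpl18, Rplp1 and Rps18 lost their calls. Without KO replicate 1, 15 were called, and Rps26 and Rps27a lost theirs. A correction for gene length left 7 calls and ended those of Rplp1, Rps12, Rps18, Rps26 and Rps27a, with adjusted p-values from 0.0537 to 0.0636. On the authors' deposited RPKM values, limma on log2(RPKM + 0.5) called no member over all genes, with adjusted p-values of the 12 from 0.0961 to 0.202, and it called Rplp0, Rps16 and Rpl13a when genes averaging under 1 RPKM were left out. No member was called lower in any of these fits.

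RPL5 and RPL11 join the ribosomal 5S RNA, and neither gene was called. Rpl5 had 612 and 543 CPM in KO and 519 and 527 CPM in WT (0.14, SE 0.07, adjusted p = 0.221). Rpl11 had 716 and 626 CPM in KO and 662 and 621 CPM in WT (0.07, SE 0.08, adjusted p = 0.658), with KO replicate 1 the highest library and KO replicate 2 between the WT libraries. Without KO replicate 1 the sign of the Rpl11 value turned, to -0.02, and without KO replicate 2 Rpl5 was called at a log2 fold change of 0.23. None of Rpl4 (0.15), Rpl17 (0.06) and Rpl39 (0.22), whose proteins line the tunnel through which the new peptide leaves, was called over the 4 libraries by edgeR or by DESeq2. Rpl4 was called without KO replicate 2 (0.23) and Rpl39 without KO replicate 1 (0.35). Rpl4 had 1054 and 936 CPM in KO and 897 and 901 CPM in WT. The 6 genes of proteins around the tunnel exit had a median of 0.06, and none was called. Of the 18 genes known from human Diamond-Blackfan anaemia, Rps19, Rps26 and Rpl18 rose and none fell. The share called higher was 6.63% among all tested genes and 18.6% among those with a mean of at least 100 CPM. The median of the 18 genes was 0.10, so this list lay slightly under the median of all members. Without WT replicate 2 none of the 18 was called.

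The counts of all 83 genes together made up 3.77% and 3.68% of the KO libraries, against 3.42% and 3.35% of the WT libraries, a ratio of 1.10. Large subunit genes held 2.175% and 2.121% in KO and 1.987% and 1.949% in WT, with a ratio of the means of 1.09. Small subunit genes held 1.595% and 1.562% in KO and 1.436% and 1.401% in WT, with a ratio of 1.11. The summed counts of the large over the small subunit were 1.364 and 1.358 in KO and 1.383 and 1.391 in WT. The KO values averaged 1.361 ± 0.00472 and the WT values 1.387 ± 0.00558 (SD, n = 2 each), and the groups did not overlap. On summed RPKM (counts per kilobase of gene, scaled to the library total) the ratio was 1.38 and 1.39 in KO and 1.40 and 1.43 in WT, again with both KO libraries lower. The mean log2 CPM of the standard large subunit genes minus that of the standard small subunit genes was -0.50 and -0.51 in KO and -0.49 and -0.47 in WT, where KO replicate 1 and WT replicate 1 lie close together. Taking the standard genes alone for this difference was decided after the values were seen. No test is given for these sums, and an exact permutation test over 2 libraries a group could not reach 0.05. Of the small subunit genes 7 of 32 were called and of the large subunit genes 5 of 51, and whether these shares differ was not tested.

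**Figure D3:**
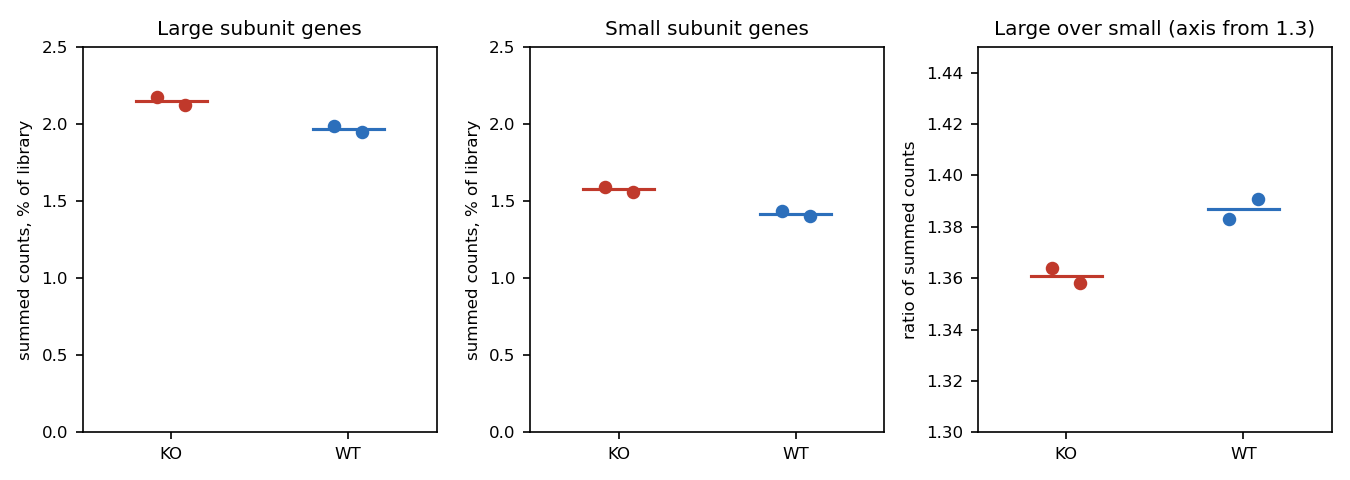
Summed counts of the large subunit genes (left) and small subunit genes (middle) as percent of the library, and the ratio of large to small (right, with an axis that starts at 1.3). Points are libraries, KO on the left and WT on the right of each panel, and lines are means. Both KO libraries hold more of either subunit, and their ratios of 1.364 and 1.358 lie under 1.383 and 1.391 in WT.

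None of the 6 further copies was called. Rps27l, a copy of Rps27 that p53 is known to activate, had 31.4 and 28.3 CPM in KO and 17.9 and 25.4 CPM in WT (0.46, SE 0.19, adjusted p = 0.125). Its WT libraries differed by more than the lower KO library lay above the higher WT library, and without WT replicate 2 it was called at 0.74. Rpl22l1 had 25.2 and 20.1 CPM in KO and 27.6 and 26.9 CPM in WT (-0.27, SE 0.17, adjusted p = 0.356). Rpl22, whose loss in mice arrests early T cell development and raises Rpl22l1, had 173 and 174 CPM in KO and 161 and 157 CPM in WT (0.13, SE 0.08, adjusted p = 0.31). Rpl7l1, which acts in large subunit assembly, had 61.9 and 49.6 CPM in KO and 45.8 and 52.2 CPM in WT, with overlapping groups. The remaining copies are known from muscle (Rpl3l) and testis (Rpl10l and Rpl39l) and were near the limit of detection. Rpl3l had 94 and 46 counts in KO and 89 and 101 counts in WT, Rpl39l had 22 and 4 counts in KO and 6 and 34 counts in WT, and Rpl10l had 8 and 0 counts in KO and 10 and 12 counts in WT.

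The coding sequences show how far the copies can be told from their partners by reads. Over the aligned bases the identity was 85.0% for Rpl39l and Rpl39, 84.7% for Rpl10l and Rpl10, 76.2% for Rps27l and Rps27, 74.3% for Rpl3l and Rpl3, 71.2% for Rpl22l1 and Rpl22 and 62.1% for Rpl7l1 and Rpl7. The 2 pairs below have coding sequences of equal length and include the most alike pair and the pair with the largest positive value among the copies. They are GENCODE coding sequences on GRCm38, and capitals mark the bases in which a pair differs. Rpl39l lies on chromosome 16 and Rpl39 on chromosome X, and both encode the small tunnel protein of 153 coding bases. Rps27l lies on chromosome 9 and Rps27 on chromosome 3, with 252 coding bases each.
Rpl39l: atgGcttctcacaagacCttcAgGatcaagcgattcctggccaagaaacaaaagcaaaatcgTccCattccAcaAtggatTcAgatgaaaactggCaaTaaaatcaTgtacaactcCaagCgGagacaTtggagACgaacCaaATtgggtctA
Rpl39: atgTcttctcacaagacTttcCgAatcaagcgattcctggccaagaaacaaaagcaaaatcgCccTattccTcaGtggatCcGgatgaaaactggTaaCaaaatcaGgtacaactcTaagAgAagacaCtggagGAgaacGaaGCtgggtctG
Rps27l: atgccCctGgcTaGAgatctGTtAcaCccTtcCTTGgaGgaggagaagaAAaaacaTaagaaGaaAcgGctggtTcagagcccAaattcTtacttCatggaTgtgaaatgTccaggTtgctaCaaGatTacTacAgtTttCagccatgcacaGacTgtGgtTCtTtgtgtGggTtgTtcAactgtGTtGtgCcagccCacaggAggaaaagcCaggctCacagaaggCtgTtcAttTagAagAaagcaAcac
Rps27: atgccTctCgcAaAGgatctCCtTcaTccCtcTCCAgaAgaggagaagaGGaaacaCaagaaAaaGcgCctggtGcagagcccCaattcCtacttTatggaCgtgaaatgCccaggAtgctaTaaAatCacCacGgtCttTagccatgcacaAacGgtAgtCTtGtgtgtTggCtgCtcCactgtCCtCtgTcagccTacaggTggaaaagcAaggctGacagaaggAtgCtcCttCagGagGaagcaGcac
Differences are spread over the whole of either pair. The longest stretch without one, in the first part of Rpl39l, is shorter than the windows of 50 bases used for the shared sequences. Rpl39 had 89.0 RPKM on average over the 4 libraries and Rpl39l 0.54 RPKM. The level of Rps27 was 360 RPKM and that of Rps27l 31.6 RPKM.

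Per length of gene, the members differed far more from each other than any differed between genotypes. Rplp1 was highest, with 1771 and 1852 RPKM in KO and 1576 and 1535 RPKM in WT. Rps3a1, a protein near the mRNA exit, averaged 986 RPKM over the 4 libraries, Rplp0 975 RPKM, Rps15 803 RPKM and Rpl8 688 RPKM. The ranges of Rps3a1 and Rplp0 over the 4 libraries overlapped, and so did those of Rpl8 and the next gene, whereas Rplp1, Rplp0, Rps15 and Rpl36 were each separated from the gene after them. From Rps16, in rank 8, down to rank 68 every gene's range overlapped that of its neighbour, so that neighbouring genes there cannot be ordered, although genes many ranks apart were separate. The 5 lowest members were Rpl13a at 11.2, Rpl24 at 1.73, Rpl3l at 1.38, Rpl39l at 0.54 and Rpl10l at 0.20 RPKM.

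The deposited lengths are those of all exons of all transcripts, so that a gene with long rare exons gets a lower RPKM. Rps24 has a deposited length of 6256 bases and a principal transcript of 1613 bases. The ratio of deposited to principal length had a Spearman correlation of -0.45 with the mean RPKM over the 77 standard genes, which share the length in both measures. With counts set per kilobase of the principal transcript, Rplp1 and Rplp0 led at 1683 and 1192, followed by Rps27, Rps9 and Rps15 at 1089, 1075 and 1011.

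Ribosomal protein genes have many processed pseudogenes, copies of their spliced mRNA inserted elsewhere in the genome, and reads that match several places may not be counted. For each member the principal transcript was cut into all windows of 50 bases, and the share with an exact match in another annotated transcript was taken. Over the 77 standard genes, the median share matching an annotated gene elsewhere was 44.0%, reaching 98.6% for Rps27, and 32 genes had at least 50%. With windows of 100 bases the median was 31.8%. In all, 1104 annotated pseudogenes shared a window with a member, and the 1036 of these in the files held 0.0464% and 0.0459% of the counts in KO and 0.0513% and 0.0434% in WT. The share of windows elsewhere had a Spearman correlation of 0.14 with the mean RPKM and of -0.07 with the log2 fold change over these 77 genes.

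The lowest standard genes, Rpl24 and Rpl13a, have another property in common. Each is overlapped on its own strand by an annotated gene that repeats its exons. For Rpl24 (chromosome 16, 55966275 to 55971435, GRCm38) this is Gm28037, which covers 47.0% of the exon bases and matches 69.4% of the windows. For Rpl13a (chromosome 7, 45125558 to 45128761) it is Gm45713, which shares 621 of the 2114 exon bases. All genes annotated at the place of Rpl13a together cover 35.4% of its exon bases and match 57.4% of its windows. Gm28037 and Gm45713 both had 0 counts in all 4 libraries, which allows up to 3 counts each. Rpl24 itself had 87 and 60 counts in KO and 38 and 76 counts in WT, and the groups overlapped (0.35, SE 0.60, adjusted p = 0.792). Rpl35 and Rpl23a overlap other genes over more of their exons, at 66.2% and 62.3%, but on the opposite strand, and had 72.1 and 135 RPKM. Rps10, with 251 RPKM, is overlapped on its own strand by RPS10-NUDT3. Unlike Gm28037 and Gm45713, RPS10-NUDT3 is not among the genes in the files, so the cases are not alike. How reads from the shared exons were counted is not given in the sources used here, and the part of the overlap in the Rpl13a change was not tested.

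**Figure D4:**
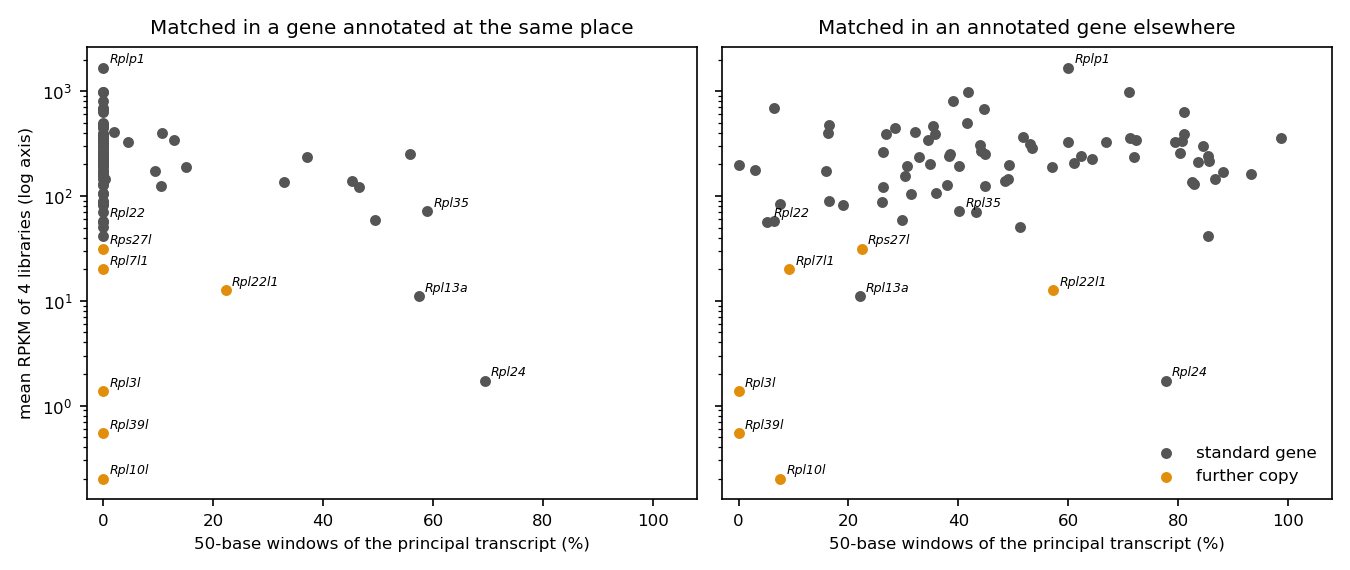
Mean RPKM of the 4 libraries (vertical, log axis) against the share of the 50-base windows of each member's principal transcript that match a gene annotated at the same place (left) or elsewhere (right). Grey points are the 77 standard genes and orange points the 6 further copies. On the left, Rpl24 and Rpl13a lie under all other standard genes at shares of 69.4% and 57.4%, and on the right the Spearman correlation with the share was 0.14 over the standard genes.

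The libraries of the KO group differed from each other in a way that followed the length of the protein. In all 9 standard genes with up to 300 coding bases the level was higher in KO replicate 2 than in KO replicate 1, by a median of 0.23 on the log2 scale, against 23 of the 68 longer genes with a median of -0.06. The limit of 300 bases was set after the values were seen. Rps29, a zinc-binding protein of the small subunit, had 248 and 328 CPM in KO and 262 and 243 CPM in WT, so that the KO libraries lay on either side of the WT libraries. Rpl41, the shortest ribosomal protein, had 328 and 398 CPM in KO and 364 and 337 CPM in WT. In the WT group replicate 2 was higher than replicate 1 in 1 of the 9 short genes and in 25 of the 68 longer ones. Coding length had a Spearman correlation of -0.56 with the log2 ratio of the KO replicates, of 0.16 with that of the WT replicates and of 0.06 with the log2 fold change between genotypes, over the 77 standard genes of the same libraries. None of the 12 called members is among the 9 short genes. Without KO replicate 1, 5 further members were called higher. Of these, Rps28, Rps29 and Rpl39 are short, and the rest, Rps9 among them, have more than 300 coding bases.

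**Figure D5:**
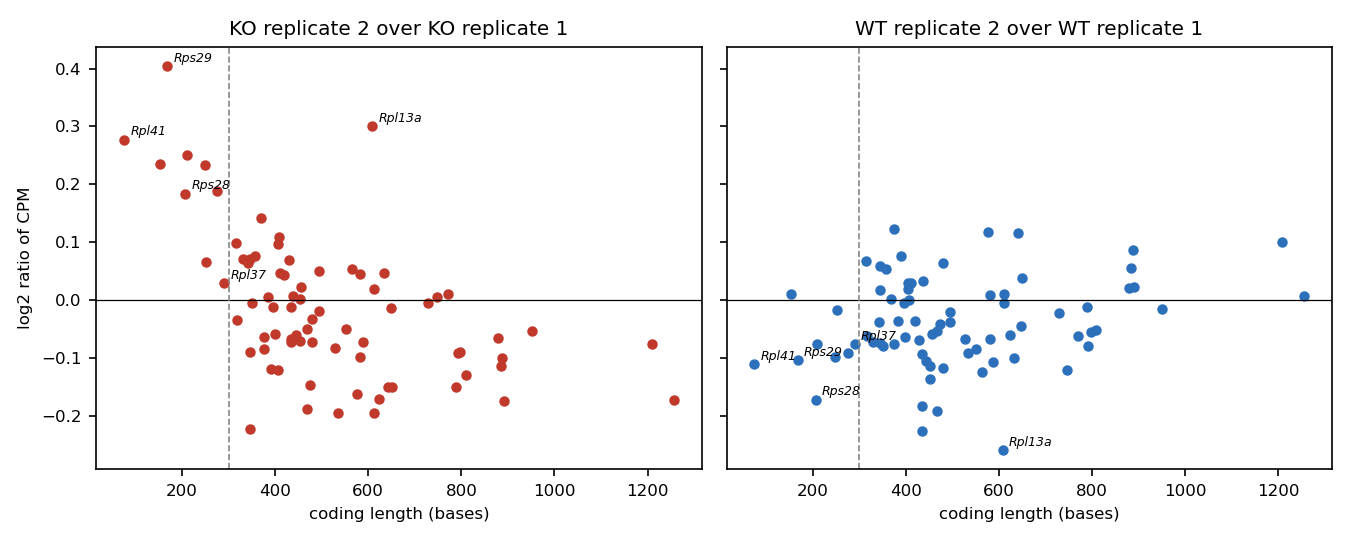
Log2 ratio of CPM of replicate 2 over replicate 1 (vertical) against the coding length in bases (horizontal), in the KO group (left) and the WT group (right), for the standard genes without Rpl24. Each point is a gene, and the dashed line stands at 300 bases. In KO all 9 genes left of the line lie above 0, and in WT 1 of the 9 does.

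Promoters of ribosomal protein genes are known for ETS and YY1 sites and for a pyrimidine-rich start. RefSeq windows on GRCm38.p6, from 250 bases before to 50 bases after the start of transcription, were at hand for 63 of the 83 members, in 75 windows among 32851 windows of all genes. The ETS core CCGGAAG, sought on both strands, was present in 36.0% of the members' windows and in 8.86% of all windows. The YY1 motif AAGATGGC was present in 10.7% of the members' windows and 2.75% of all windows. For the E-box CACGTG, bound by MYC and USF proteins, the shares were 10.7% and 7.15%, and for the TATA letters TATAAA they were 9.33% and 13.6%. These motifs were matched as exact letters, and none of them contains another.

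Of the 10 called members with a window, 3 held the ETS core, namely Rps18, Rps26 and Rpsa. Their sites are shown with the bases on either side, read along the gene's strand, with the core in capitals. Rps18 held it at 2 places on chromosome 17, at chr17:33955790-33955848 and chr17:33955708-33955766 on the minus strand. The Rps26 stretch is chr10:128626688-128626746 on the minus strand. The Rpsa stretch is chr9:120127552-120127610 on the plus strand, and here the core is on the other strand and reads CTTCCGG.
Rps18, upstream site: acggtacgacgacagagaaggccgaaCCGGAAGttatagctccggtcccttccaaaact
Rps18, downstream site: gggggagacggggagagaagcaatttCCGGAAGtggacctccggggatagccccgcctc
Rps26: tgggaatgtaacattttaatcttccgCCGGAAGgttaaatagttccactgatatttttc
Rpsa: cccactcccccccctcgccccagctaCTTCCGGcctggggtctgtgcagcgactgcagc
The cores begin 157 and 75 bases before the RefSeq start in Rps18, 214 bases before it in Rps26 and 188 bases before it in Rpsa. By GENCODE the genes Rps18 and Rps26, on the minus strand, reach to 33956001 and 128626747, so their stretches lie inside the annotated genes. The Rpsa stretch lies before the GENCODE gene, which starts at 120127689. The 26 members with an ETS core in a window had a median log2 fold change of 0.11 with 3 called, and the 37 without it had a median of 0.14 with 7 called. A match of letters is a description of the window and says nothing about binding.

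A few other mRNAs with an oligopyrimidine tract rose, and of the genes that assemble ribosomes more fell than rose. Of 15 translation factors and other mRNAs known to start with an oligopyrimidine tract, Vim (0.39), Eif4b (0.24) and Eef1a1 (0.21) rose and none fell, with a median of 0.12. Of all tested genes 6.63% were called higher, and of those with a mean of at least 100 CPM 18.6%. Eef1a1, the factor that brings aminoacyl tRNA to the ribosome, had 4940.2 and 4436 CPM in KO and 3892 and 4231 CPM in WT. Without WT replicate 1 none of the 15 was called higher, and without KO replicate 1 only 1 was. Among 18 genes that control such mRNAs, 4 rose and 3 fell, where 6.63% of all tested genes were called higher and 7.89% lower. Larp4, a protein that binds and stabilises mRNA tails, had 76.5 and 63.7 CPM in KO and 128.0 and 129.6 CPM in WT (-0.88, SE 0.10, adjusted p = 0.000127). Mlst8, a subunit of both mTOR complexes, rose (0.94), and Rheb, the GTPase that activates mTOR, fell by 0.59 on the log2 scale. With WT replicate 2 left out Rheb was not called (adjusted p = 0.0953). Larp1 (-0.05, SE 0.07, adjusted p = 0.779) and Mtor (0.01, SE 0.08, adjusted p = 0.979) were not called. Without WT replicate 1, or without WT replicate 2, 2 of the 18 rose and 2 fell.

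Of 48 genes of ribosome assembly in the nucleolus, 11 fell, 3 rose and 34 were not called, with a median of -0.10, where 7.89% of all tested genes were called lower and 6.63% higher. The 3 with the smallest adjusted p-values all belong to small subunit processing. Wdr43 had 105 and 101 CPM in KO and 163 and 171 CPM in WT (-0.70, SE 0.08, adjusted p = 0.000165). Nol6 had 105 and 105 CPM in KO and 164 and 150.4 CPM in WT (-0.58, SE 0.08, adjusted p = 0.000743), and Tsr1 had 36.9 and 34.2 CPM in KO and 62.7 and 58.0 CPM in WT (-0.76, SE 0.12, adjusted p = 0.00118). The groups did not overlap in these 3 genes, and their calls held when each library was left out in turn. Both KO libraries lay below both WT libraries in 22 of the 48 genes and above them in 11, against 28.1% and 27.8% of all tested genes. Without WT replicate 1, 7 of the 48 fell. The summed level of the 48 genes was 3292 and 3174 CPM in KO and 3646 and 3566 CPM in WT, while that of the 83 ribosomal protein genes was higher in KO. Whether these lists differ in their change was not tested.

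Of 15 genes of RNA polymerase I and its start factors, which make the ribosomal RNA, Ttf1 (0.66) and Ubtf (0.37) rose and Twistnb (-0.53) fell. The calls of Ttf1 and Ubtf were lost without WT replicate 2, at adjusted p = 0.0571 and 0.159. Among 8 regulators of ribosomal protein gene transcription, the general factor Sp1 had 209.7 and 215 CPM in KO and 121 and 128 CPM in WT and rose (0.77, SE 0.08, adjusted p = 6.38e-05). Tbp fell by 0.48 on the log2 scale (adjusted p = 0.0373), but not with KO replicate 2 left out (0.187), nor with WT replicate 1 (0.0709) or WT replicate 2 (0.0533) left out. Myc was not called (-0.02, SE 0.13, adjusted p = 0.966). In the list of p53 and the checkpoint through which RPL5 and RPL11 act, Mdm4 (0.44) and Trp53 (0.35) rose and Bbc3 (-0.98), Mdm2 (-0.26) and Pmaip1 (-1.02) fell, the last of them named after its values were seen. Mdm2, the ligase that RPL5 and RPL11 bind, had 202 and 210.2 CPM in KO and 248 and 247 CPM in WT. It was not called with KO replicate 1 left out (adjusted p = 0.119), nor with either WT library left out (0.167 for replicate 1 and 0.124 for replicate 2). The call of Trp53 did not survive leaving out WT replicate 1 (0.0913), and that of Pmaip1 was lost without either replicate 2 (0.103 without the KO and 0.195 without the WT library). Of 8 hosts of small nucleolar RNAs, Snhg8 rose (0.80), a call lost without KO replicate 2 (0.0538). Of the ribosomal proteins with symbols of another form, Gnb2l1, the older symbol of Rack1 and named after its values were seen, had 987 and 989 CPM in KO and 894 and 905 CPM in WT (0.14, SE 0.06, adjusted p = 0.162). Fau was not called (0.14, SE 0.09, adjusted p = 0.36). In the list of ribosomal proteins that the rule leaves out, 3 genes were tested and none was called. Gnb2l1 is not among these 3, whose summed level was 629 and 720 CPM in KO and 669 and 576 CPM in WT. Of the 3, 1 had a positive log2 fold change (0.14) and 2 a negative one, the lowest -0.43, with a median of -0.37.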

How the data were processed

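Gene counts of 2 KO and 2 WT libraries were used as the authors deposited them, together with the authors' deposited RPKM table, which holds gene lengths and symbols. In all 53715 genes the deposited RPKM equalled the count divided by length and library total, within a relative tolerance of 1e-06. Per the submitters' processing notes, the tools were STAR 2.6.0a, HTSeq 0.6.1, cutadapt 1.17, DESeq2 1.24.0 and FastQC 0.11.5, on GRCm38 (mm10). No source used here gives the read length, strand setting or annotation. Whether reads from overlapping genes on opposite strands were told apart is therefore not known.

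Counts were tested with edgeR 4.0.16 in R 4.3.3 (TMM, filterByExpr, robust quasi-likelihood fit on genotype, two-sided, all 4 libraries), with adjustment over all 16588 genes tested. Alternatives were other scalings and filters, DESeq2 1.42.0, a replicate block, a length correction, limma 3.58.1 on log2 RPKM, and each library left out. The 4 libraries held 35862730 to 37033180 counts. Replicates differed beyond sampling noise, with chi-square values per degree of freedom of 19.0 in KO and 16.7 in WT.

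Gene coordinates, coding sequences and shared windows came from GENCODE M21 (53620 identifiers matched). Windows were sought on either strand in annotated transcripts only, since a genome sequence was not used here. Promoter windows came from RefSeq on GRCm38.p6. The members, the gene lists and the tests were chosen with earlier results of these data known. The genes named were Srsf1, members called, copies and their partners, the stalk, tunnel, beak and RPL5 and RPL11 genes, the 5 highest and 5 lowest members by RPKM, and up to 3 called genes of each other list with Mdm2, Trp53, Larp1, Mtor and Myc. Others are marked where they appear. A few genes of the family are not reported here by name, and they stay in the counts and medians.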

Additional observations from a re-analysis of the deposited data

How the results depend on the processing

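The number of ribosomal protein genes called higher was 12 and lay between 10 and 14 with library size, RLE or upper-quartile factors, with no filter or with one of 1 CPM, and was 17 by DESeq2, which kept all 12. It was 8 with the replicate block, 7 with the length correction and 3 to 19 when a library was left out. By limma on log2(RPKM + 0.5) and on log2(RPKM + 0.1) it was 0 and 0, with 27 members at an unadjusted p under 0.05 in each, and it was 3 with 0.5 added and a mean RPKM of at least 1. Over all genes these 3 limma fits called 0, 82 and 1200 genes (0, 22 and 538 higher, 0, 60 and 662 lower). For the other alternatives the count over all genes is not given here. Large subunit genes called higher numbered 8 by DESeq2, 0, 0 and 2 by limma and 1 to 9 when a library was left out. Small subunit genes called higher numbered 4 with the replicate block, 0, 0 and 1 by limma, 3 with the length correction and 2 to 10 when a library was left out. With the block no named member changed direction, and the calls of Rpl12, Rps12, Rps18 and Rps27a were lost. The deviations of same-numbered libraries had a correlation of -0.04, and the numbers were not read as pairs. The median log2 fold change was 0.077 (large) and 0.14 (small) with the length correction, and 0.15 to 0.22 (small) when a library was left out. In place of the ratio of sums, the KO minus WT difference in mean log2 CPM of large minus small subunit genes was -0.12, where Rpl10l with 0 counts in KO replicate 2 enters with equal weight. The sign turned when a library was left out in Rpl11 (-0.016 to 0.16, lowest without KO replicate 1), Rpl24 (-0.050 to 0.92, lowest without WT replicate 1), Rpl39l (-2.26 to 1.06, positive without KO replicate 2 or WT replicate 2) and Rps15 (-0.0078 to 0.22, lowest without WT replicate 2), none of them called. The causes were not tested. Over 15 alternatives the named members gave 423 values with the same direction and call, 68 that lost a call, 10 that gained one and 5 that turned sign.

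Scaling moved the median of all genes by less than 0.03. With 2 libraries a group, a member that was not called is not shown to be equal between genotypes. Rpl10l, Rpl39l, Rpl3l and Rpl24, with at most 101 counts in a library, carry SEs of 0.53 to 1.95.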
